A study of Mus musculus with 3 samples.

Results

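The 9 B cell identity genes were examined for Runx3 binding and for the histone mark H3K4me1 in NK cells (NKC) at rest, cells that belong to another lymphocyte lineage. The 9 genes were taken by symbol, out of 22367 protein-coding genes of the mm9 annotation. They were Cd79a, Cd79b, Cd22, Ms4a1, Blk, Blnk, Pax5, Ebf1 and Pou2af1. For each gene the body and 20 kb on either side were taken as its window, and every called region that shared at least 1 bp with the window was listed. The cells were NKC freshly isolated from the spleen of ICR mice without activation. Chromatin was precipitated with an in-house polyclonal antibody to Runx3, with a monoclonal antibody to H3K4me1 or, as control, with NIS, a rabbit serum from non-immunised animals, 1 sample each. The labels describe a sort on NKp46 and the study's methods a sort on DX5. The labels state neither the genotype, the age nor the sex of the mice. The methods describe NKC from wild type and from Runx3-/- spleens and do not say of which the ChIP-seq cells were. The study used Runx3-/- cells for its expression comparison and reported the ChIP-seq as Runx3 occupancy in resting NKC.

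Runx3 is a transcription factor of cytotoxic lymphocytes. H3K4me1, monomethylation of histone H3 at lysine 4, is a mark of enhancers and of the flanks of active promoters. B cells carry an antigen receptor whose signalling chains are Cd79a and Cd79b. Ebf1 and Pax5 are the transcription factors that commit progenitors to the B lineage, and Pax5 also represses genes of other lineages. In cells outside that lineage these genes are held largely silent, so they serve here as a contrast to genes that NKC use.

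The Runx3 list held 15524 regions, called peaks here, and the H3K4me1 list 49902. The lists give positions only, with no height, score or p-value, so a weakly and a strongly occupied region look alike. Each antibody had 1 list, made by the authors from joined reads, so no value below has a replicate error and no test was run. Values of the 9 genes are set beside the same values over all protein-coding genes. In bulk chromatin a mark carried by a few cells of another type and a weak mark in every cell cannot be told apart.

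The 9 windows together held 8 Runx3 peaks and 32 H3K4me1 regions. A Runx3 peak lay in the windows of 5 of 9 genes (Cd79a, Cd22, Blk, Pax5 and Ebf1), against 51.0% of all protein-coding genes. An H3K4me1 region lay in 8 of 9 windows, against 74.0%. Ms4a1 was empty of either kind, as were 25.8% of all genes. These shares were near those of all genes. The median gene of the 9 had 1 peak and 3 H3K4me1 regions, which were also the medians over all genes, and H3K4me1 covered 6.90% of its window, against 7.37%.

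Peaks lay away from the starts of the genes. No member had a Runx3 peak within 1 kb of its start, against 25.8% of all genes. Within gene bodies, 3 of 9 members had a peak (Blk, Pax5 and Ebf1), against 33.6%. For H3K4me1 the counts were higher. A region lay within 1 kb of the start of 5 of 9 members, against 56.8%, and 8 of 9 had a region in the body, against 63.2%.

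**Figure D1:**
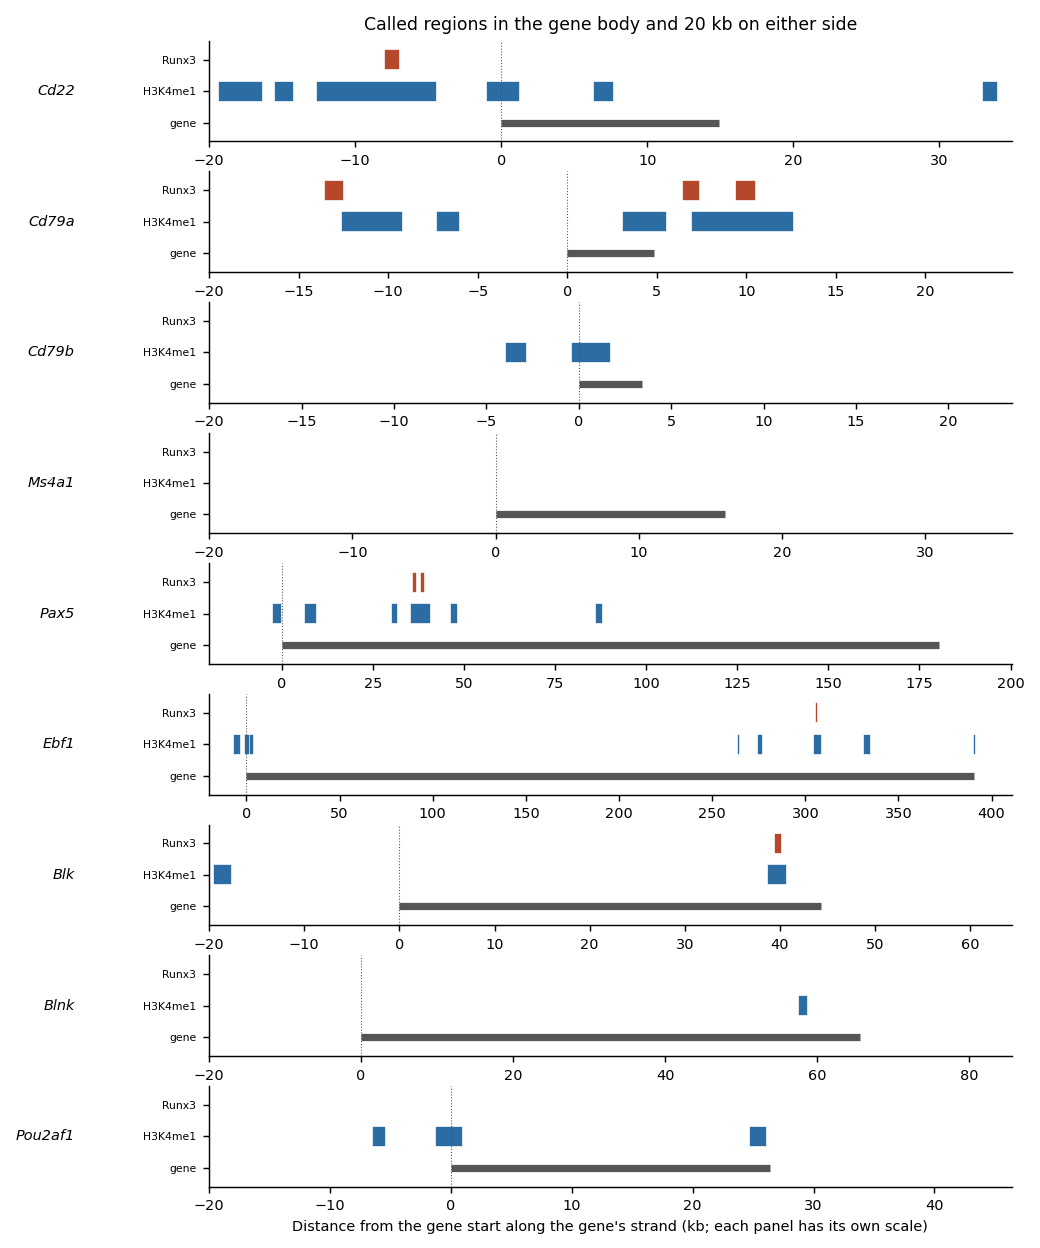
Called regions in the 9 windows, drawn to scale against distance from the gene start along the gene's strand in kb, with a separate scale for each panel. Grey bars are gene bodies, blue boxes H3K4me1 regions and red boxes Runx3 peaks. Ms4a1 has no box, and no red box touches a gene start, which is the dotted line at 0.

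The antigen receptor chains came first. Cd79a, on chromosome 7 from 25682400 to 25687216 on the plus strand, had the most peaks of the 9 windows, with 3 in 44.8 kb. All 3 belonged by position to neighbouring genes. The peak at 25668867 to 25669857 lay over the start of Rps19, a ribosomal protein gene, with its midpoint at -28 bp from that start. The peaks at 25688870 to 25689773 and 25691818 to 25692862 had their midpoints at -105 and -326 bp from starts of Arhgef1, a guanine nucleotide exchange factor. They touched exons and introns of Arhgef1 and no base of Cd79a. The window also held 4 H3K4me1 regions, which covered 28.2% of it, and each had its nearest protein-coding start in Rps19 or Arhgef1. A single region reached into Cd79a, from 25685539 to 25687914 over coding exons and the 3′ UTR, and the Cd79a start lay 3.14 kb from the nearest region. H3K4me1 covered more of this window than of 88.9% of all genes' windows, in a stretch where the Cd79a promoter itself held none.

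Cd79b, the partner of Cd79a, lies on chromosome 11 from 106172655 to 106176076 on the minus strand. It showed the reverse arrangement. Its window of 43.4 kb held 0 Runx3 peaks, and the nearest peak was 37.2 kb from the gene, closest to a start of Scn4a. An H3K4me1 region from 106174391 to 106176461 covered both annotated starts, the 5′ UTR and coding exons. A second region, from 106178933 to 106180004, lay upstream at the 3′ end of Scn4a. Together they covered 7.24% of the window.

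Next were the other surface proteins. Cd22, an inhibitory lectin that dampens receptor signalling, lies on chromosome 7 from 31650421 to 31665361 on the minus strand. It had the highest H3K4me1 cover of the 9 genes, at 30.5% of 54.9 kb in 6 regions, more than 90.7% of all genes had. A region of 2195 bp (31664162 to 31666356) lay over its start. The widest, of 8199 bp (31669800 to 31677998), lay upstream and held the 1 Runx3 peak (31672362 to 31673295), which was intergenic with its midpoint 7.47 kb before the Cd22 start. No other gene start was nearer to that peak. Ms4a1, which encodes the B cell surface protein CD20, lies on chromosome 19 from 11324654 to 11340669 on the minus strand. Its window of 56.0 kb held 0 peaks and 0 H3K4me1 regions. The nearest H3K4me1 region was 26.2 kb from the gene, closest to the start of Ms4a5, and the nearest peak 84.4 kb.

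Because only uniquely aligned reads were kept, a window of repeated sequence could appear empty. Of the 40-base words of the Ms4a1 window, 88.7% occurred once in the mm9 chromosomes, and the other windows ranged from 86.6% (Cd79b) to 98.1% (Pou2af1). The part of repeated sequence in the empty window was not tested. The words were matched exactly, whereas an aligner also allows mismatches.

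Of the signalling proteins, Blk is a Src-family kinase of B cells and Blnk the adaptor that links the receptor's kinases to downstream enzymes. Blk lies on chromosome 14 from 63991674 to 64036024 on the minus strand. It had 1 Runx3 peak (63995955 to 63996562), which at 608 bp was the narrowest of the 8. It lay in intron 10 of 12 of the longest coding transcript, 39.8 kb from the start, inside an H3K4me1 region of 1888 bp that stayed within the intron. The other H3K4me1 region of the window lay at the start of the neighbour Fam167a, and the Blk start was 17.7 kb from any region. Blnk, on chromosome 19 from 41003417 to 41069025 on the minus strand, had 0 peaks in 106 kb and a single H3K4me1 region of 1006 bp (41010379 to 41011384) over a coding exon and adjoining introns near its 3′ end. Cover was 0.953% of the window, and 27.4% of all genes had less. Its nearest peak was 110 kb away.

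The transcription factor genes followed. Pax5 lies on chromosome 4 from 44544017 to 44724318 on the minus strand. It was the only member with more than 1 peak that was nearest to its own start. The peaks, at 44685251 to 44686163 and 44687577 to 44688401, were 1413 bp apart. Each lay in intron 5 of 9 of the longest coding transcript, inside 1 H3K4me1 region of 5096 bp (44683678 to 44688773), and also in an intron of the overlapping non-coding gene Gm12462. An enhancer that is active in B-lineage cells is known in the fifth intron of Pax5, and whether these positions coincide with it was not tested. Of the 7 annotated Pax5 starts, 2 lay inside an H3K4me1 region, and a further region ended 0.212 kb from the outermost start. The 6 regions covered 7.03% of 220 kb.

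Ebf1, on chromosome 11 from 44430819 to 44821593 on the plus strand, is the longest of the 9 genes. Its window held 8 H3K4me1 regions, the most of any member, which covered 4.27% of 431 kb. A region of 2681 bp (44429804 to 44432484) lay over the gene start, and 3 of 5 annotated starts were covered. Most of the gene then lacked regions. A region lay 1.94 kb downstream of the start and another 3.47 kb upstream, and the remaining 5 lay from 264 kb downstream to the 3′ end. The 1 Runx3 peak (44736482 to 44737235) lay 306 kb downstream of the start in intron 9 of 15, within an H3K4me1 region of 3887 bp. Measured from the Ebf1 start, the nearest peak of all lay outside the window, 98.3 kb away and closest to Rnf145.

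Pou2af1 encodes a B cell coactivator that binds with octamer factors. It lies on chromosome 9 from 51021795 to 51048184 on the plus strand. Its 66.4 kb held 0 peaks, and the nearest peak was 203 kb from the gene, the farthest of the 9. It held 3 H3K4me1 regions, with cover of 6.90%. The widest, of 2197 bp (51020528 to 51022724), lay over the start, and the others lay 5.43 kb upstream and in the 3′ UTR. Pou2af1 and Cd79b were thus the members with H3K4me1 over the start and no Runx3 peak in the window.

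**Figure D2:**
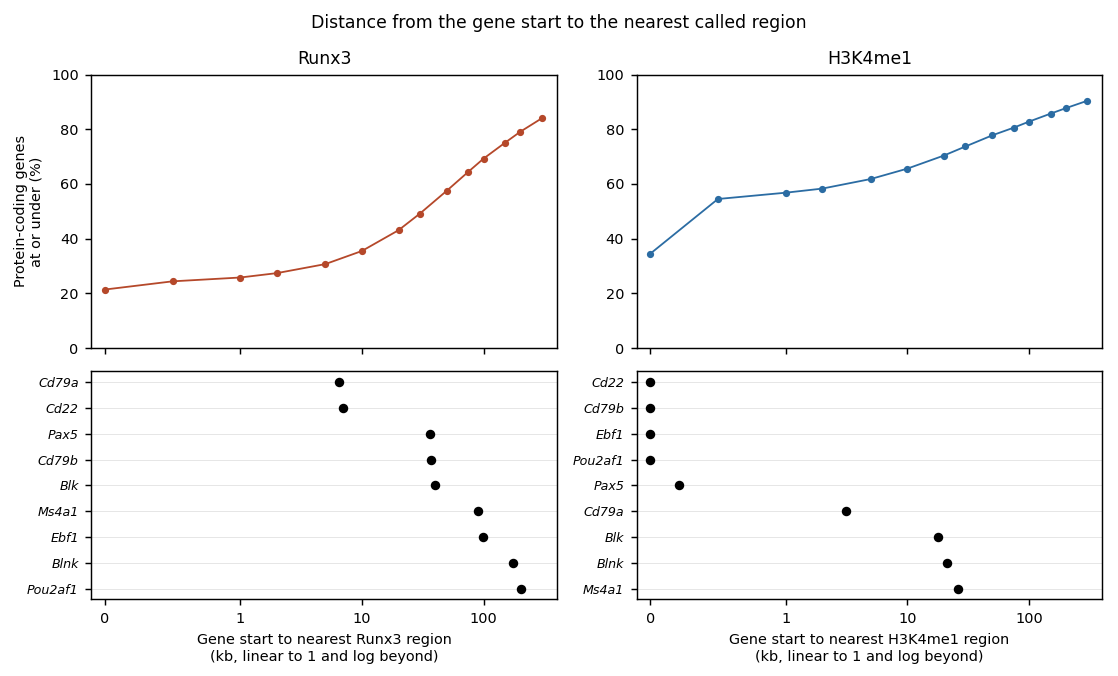
Distance in kb from the gene start to the nearest Runx3 peak (left) and H3K4me1 region (right), on an axis that is linear to 1 kb and logarithmic beyond. The upper curves give the percent of protein-coding genes at or under each distance and the lower dots the 9 members, which lie 6.47 to 203 kb from a peak, while 4 of them start inside an H3K4me1 region.

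The members' starts were 6.47 to 203 kb from the nearest peak, with a median of 39.5 kb, against 31.5 kb over 22350 genes on the chromosomes with peaks. Of the 9 starts, 7 were farther from a peak than the median gene. Distances to H3K4me1 ran from 0 to 26.2 kb with a median of 0.212 kb, against 0.256 kb. The 9 genes fell into 2 sets here. Cd22, Cd79b, Pax5, Ebf1 and Pou2af1 started inside or next to a region, whereas Cd79a, Blk, Blnk and Ms4a1 started 3.14 to 26.2 kb from any.

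The flank of 20 kb set which regions were counted. Just inside it were H3K4me1 regions 18.1 kb from the Cd22 gene body, near Ffar3, and 17.7 kb from Blk. Just outside were a region 20.4 kb from Cd22, also near Ffar3, and a region 21.3 kb from Blnk, near Dntt. The length of the windows also differed, from 43.4 kb to 431 kb. Among genes with windows of 200 kb and over, as for Pax5 and Ebf1, 49.1% had a peak and the median H3K4me1 cover was 2.01%. For windows of 100 to 200 kb, as for Blnk, the values were 59.4% and 6.10%, and for those of 50 to 100 kb, as for Cd22, Ms4a1, Blk and Pou2af1, 60.1% and 9.95%. Among those under 50 kb, as for Cd79a and Cd79b, 38.9% had a peak and the median cover was 5.40%.

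Of the 8 peaks, 5 had their nearest protein-coding start in the member itself, and these lay 7.47 to 306 kb from it. Each of these 5 was wholly inside an H3K4me1 region, and 4 of them lay in introns. The other 3, all in the Cd79a window, lay within 0.326 kb of a neighbour's start, and H3K4me1 covered 2.93%, 45.7% and 100% of them. Peak widths ran from 608 to 1045 bp with a median of 908 bp, against 825 bp in the whole list.

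H3K4me1 regions with and without a peak overlapped in width. The 6 regions with a peak measured 1888 to 8199 bp with a median of 4491.5 bp, and the 26 without measured 848 to 3379 bp with a median of 1680 bp. In 5 of the 5 member windows with a peak, the widest region held one. Over all genes with a peak and at least 2 regions in the window, that was so for 66.4%. Wide regions have more room for a peak, and the part of width in these values was not tested.

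The sequences at the centres of the 5 peaks nearest to the members' own starts are given to show how far they carry the letters that Runx proteins bind. The RUNX consensus was searched on either strand as TGTGGT or TGTGGC, the commoner forms in these peaks, and as TGCGGT or as TGCGGC. Each line is the central 200 bp on the plus strand of mm9, and capitals mark a match on either strand.
Cd22, upstream, chr7:31672728-31672927: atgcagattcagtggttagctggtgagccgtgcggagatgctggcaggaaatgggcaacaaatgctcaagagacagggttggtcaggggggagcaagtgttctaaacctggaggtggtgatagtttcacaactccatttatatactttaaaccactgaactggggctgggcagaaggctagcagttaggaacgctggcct
Pax5, intron, chr4:44685607-44685806: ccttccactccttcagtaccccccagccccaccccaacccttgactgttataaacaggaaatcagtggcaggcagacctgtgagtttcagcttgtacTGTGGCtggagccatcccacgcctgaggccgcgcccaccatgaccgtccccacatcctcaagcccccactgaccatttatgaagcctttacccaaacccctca
Pax5, intron, chr4:44687889-44688088: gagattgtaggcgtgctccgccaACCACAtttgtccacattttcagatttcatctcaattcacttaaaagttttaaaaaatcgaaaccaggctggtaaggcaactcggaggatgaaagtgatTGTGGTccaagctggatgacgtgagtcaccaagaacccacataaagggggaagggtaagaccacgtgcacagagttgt
Ebf1, intron, chr11:44736758-44736957: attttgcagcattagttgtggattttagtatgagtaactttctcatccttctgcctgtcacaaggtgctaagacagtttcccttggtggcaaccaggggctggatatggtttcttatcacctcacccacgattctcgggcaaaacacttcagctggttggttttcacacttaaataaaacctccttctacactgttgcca
Blk, intron, chr14:63996158-63996357: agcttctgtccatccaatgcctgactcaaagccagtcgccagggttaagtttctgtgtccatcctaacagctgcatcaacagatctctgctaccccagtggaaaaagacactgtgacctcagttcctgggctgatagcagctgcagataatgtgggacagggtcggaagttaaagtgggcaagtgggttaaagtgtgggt

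The Pax5 peaks carried matches at their centre, 1 in the peak at 44685251 and 2 in the peak at 44687577. In the former, TGTGGC lay 0.5 bp from the midpoint. The Cd22 and Blk peaks had 3 matches each over their whole width and 0 in the central 200 bp, with the closest 153.5 and 117.5 bp from the midpoint. The Ebf1 peak had 0 matches over all of its 754 bp. Among all 8 peaks, 7 held a match somewhere, against 93.3% of the 15524 peaks, and 3 held a match in the central 200 bp, against 69.1%. The centre is the midpoint of the called region. The lists do not give the point of strongest signal, which may lie elsewhere in the peak. The ETS consensus, AGGAAGT or CGGAAGT on either strand, occurred in 6 of the 8, against 41.8%, and in the central 200 bp of 2, against 20.1%. These counts include the peaks of the Cd79a window, which lay at neighbours' starts. Of those, the peak at 25668867 held a central ETS match. The peak at 25691818 held an ETS match and a central RUNX match. ETS factors share many sites with Runx proteins in lymphocytes.

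Letters bound by B cell factors were counted in the same 8 peaks. The EBF1 consensus TCCCNNGGGA occurred in 1 of them, the Cd22 peak, against 2.39% of all peaks. The octamer ATGCAAAT occurred in 0, against 3.88%, and the E-box CAGGTG, a sequence bound by E2A, in 4, against 47.4%. Each was searched on both strands. The 4 peaks with the E-box included those of the Cd79a window at 25688870 and 25691818, which lay at starts of Arhgef1.

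**Figure D3:**
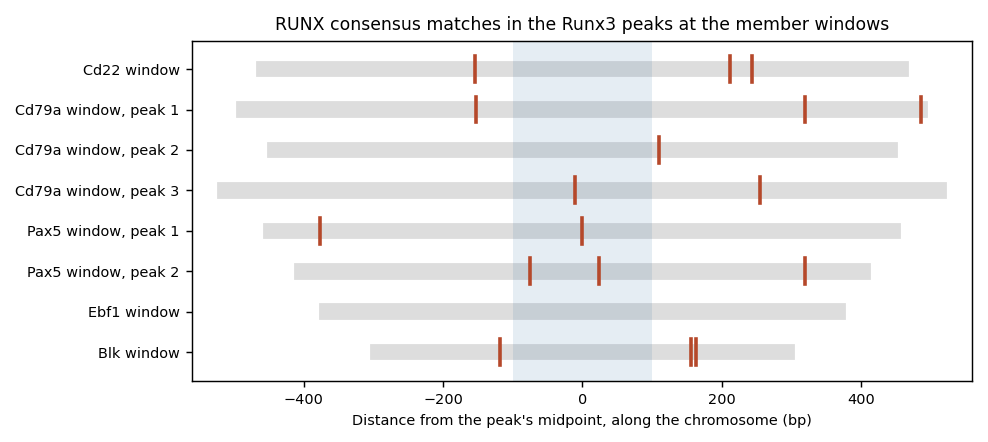
Positions of RUNX consensus matches (red ticks) in the 8 Runx3 peaks (grey bars, to scale) in the member windows, in bp from the peak's midpoint along the chromosome, in order of position within each window. The shaded band is the central 200 bp, which holds a match in 3 of 8 peaks, and the Ebf1 peak has no tick.

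The bases before the gene starts were read to see whether the promoters without a peak lacked the consensus. In the 300 bases from 250 before to 50 after the start, 4 of 9 members held a RUNX match (Cd79a, Cd79b, Ebf1 and Blk), against 45.3% of all protein-coding genes. Nearest before the start were TGTGGC at -49 in Cd79a and TGTGGT at -73 in Cd79b, counted from the start to the match's first base. No Runx3 peak was called at any of them. The 250 bases before the start are given for the receptor chains and for Ebf1, which held RUNX letters there, and for Blnk, which held the octamer. They read along the gene's strand on mm9, and capitals mark RUNX, octamer or E-box matches on either strand.
Cd79a, chr7:25682150-25682399, plus strand: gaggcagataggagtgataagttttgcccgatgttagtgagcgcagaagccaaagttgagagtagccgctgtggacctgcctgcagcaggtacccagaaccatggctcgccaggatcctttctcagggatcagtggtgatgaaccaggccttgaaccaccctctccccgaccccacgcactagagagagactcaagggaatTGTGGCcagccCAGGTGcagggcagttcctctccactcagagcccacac
Cd79b, chr11:106176077-106176326, minus strand: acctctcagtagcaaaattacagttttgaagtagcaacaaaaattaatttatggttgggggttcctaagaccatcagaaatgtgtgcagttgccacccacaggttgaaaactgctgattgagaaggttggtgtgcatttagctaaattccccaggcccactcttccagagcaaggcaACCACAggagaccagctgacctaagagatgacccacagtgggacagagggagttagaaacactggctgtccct
Ebf1, chr11:44430569-44430818, plus strand: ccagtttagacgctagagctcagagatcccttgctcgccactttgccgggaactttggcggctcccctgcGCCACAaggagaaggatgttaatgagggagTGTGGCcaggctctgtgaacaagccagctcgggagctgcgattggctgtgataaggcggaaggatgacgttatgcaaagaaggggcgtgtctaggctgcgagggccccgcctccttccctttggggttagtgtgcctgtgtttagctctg
Blnk, chr19:41069026-41069275, minus strand: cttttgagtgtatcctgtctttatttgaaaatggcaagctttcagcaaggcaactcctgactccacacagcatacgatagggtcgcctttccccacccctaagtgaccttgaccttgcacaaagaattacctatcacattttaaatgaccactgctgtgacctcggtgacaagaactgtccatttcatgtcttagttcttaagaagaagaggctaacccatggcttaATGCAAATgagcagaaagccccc

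The E-box CAGGTG occurred in the 300 bases of 4 members, among them Cd22, Cd79a and Blk, against 19.9% of all genes. The octamer occurred in Blnk alone, at -23, against 1.73%, and the EBF1 consensus in 0 of 9, against 0.894%.

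The 9 genes were then set beside genes that NKC use, as a check of the labelled cell type. All 12 NK cell genes had a Runx3 peak and an H3K4me1 region in the window. They held 2 to 12 peaks each, and H3K4me1 covered 23.8% to 94.8% of the window with a median of 66.0%. Klrb1c and Klrd1, which encode lectin-like receptors, had 12 and 9 peaks, and Tbx21, which encodes the factor T-bet, had 8. A peak lay within 1 kb of the start of 10 of 12 NK cell genes and of 0 of 9 members. For the T cell and myeloid identity genes listed below, the counts were 1 of 9 and 0 of 9. For the members, H3K4me1 cover ran from 0 (Ms4a1) to 30.5% (Cd22), and only Cd22 and Cd79a reached into the range of the NK cell genes. The median density was 0.232 peaks per 100 kb of window in the members, 9.97 in the NK cell genes and 0.451 in all genes. The members' median was the value of Ebf1, with 1 peak in 431 kb. Summed over all windows of each group, the densities were 0.723, 10.7 and 1.29. The members and the lists were chosen with earlier results of these data known, and no test of the difference was made.

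Other genes of B cells were listed next. Of 16 further B cell genes, among them Cr2 and Btk, 11 had a Runx3 peak and 16 an H3K4me1 region in the window. Over all genes the shares were 51.0% and 74.0%. The median cover of the 16 windows was 10.9%, against 7.37%. Their median density was 2.15 peaks per 100 kb, against 0.232 in the members and 0.451 in all genes. Summed over all windows of a list, the densities were 1.33, 0.723 and 1.29. By that measure these 16 genes were near all genes, while by the median density and the median cover they stood higher. A peak lay within 1 kb of the start of 3 of the 16, against 25.8% of all genes. The most peaks were at Cxcr5, a chemokine receptor gene, with 4, and at Cd72 and Fcer2a with 2 each. Identity genes of other lineages were listed in the same way. The 9 T cell genes had a peak in 6 windows and a median cover of 27.3%. Cd28 led them with 5 peaks, Cd3d, Cd3g, Zbtb7b and Cd3e followed with 2 each, and Cd8a and Cd8b1 were empty. The 9 myeloid genes had a peak in 4 windows and a median cover of 8.41%. Cd14 had 2 peaks, Elane, Mpo and Csf1r 1 each, and Lyz2 and Emr1 were empty.

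Genes that share the members' pathway but are used outside B cells stood higher, in lists chosen with earlier results of these data known. The 14 receptor signalling genes all had a peak, against 51.0% of all genes, with a median of 5.50, and a median cover of 30.9%. They included Fyn with 15 peaks, Pik3ap1 with 10 and Inpp5d with 8. Their windows were longer, with a list median of 123 kb against 66.4 kb in the members. Per 100 kb, Fyn had 6.34 peaks, Pik3ap1 6.55 and Inpp5d 5.71. Against these, the B cell signalling genes Blk and Blnk had 1 and 0 peaks, or 1.19 and 0 per 100 kb. Of 13 listed transcription regulators of B cell fate, Id2 and Id3 among them, 12 had a peak, with cover of 5.65% to 80.7%. Ikzf1 and Ikzf3 had 10 peaks each and Bach2 7, or 7.82, 8.26 and 1.81 per 100 kb. Pax5, Ebf1 and Pou2af1 had 2, 1 and 0, or 0.908, 0.232 and 0 per 100 kb. Several of these windows overlap or share neighbours, as those of Cd3d, Cd3e and Cd3g do, so genes of a list are not independent.

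**Figure D4:**
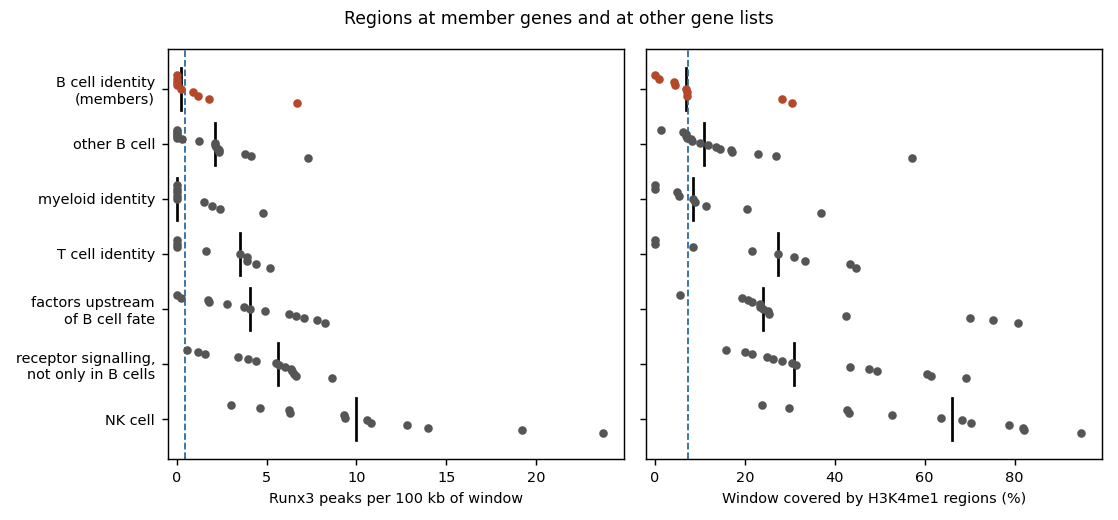
Runx3 peaks per 100 kb of window (left) and percent of the window covered by H3K4me1 regions (right), 1 dot per gene, with vertical position within a row only spreading the dots. Red dots are the 9 members, grey dots the other lists, black bars the list medians and dashed lines the medians over 22367 protein-coding genes. The members' median of 0.232 peaks per 100 kb is the value of Ebf1, and that of the NK cell genes is 9.97.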

How the data were processed

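Runx3 and H3K4me1 were measured by ChIP-seq in resting splenic NKC, with NIS as control. The authors, by their labels and methods, aligned short reads to mm9 with ELAND (CASAVA 1.7 is named in the submitters' processing notes), kept unique alignments, and called regions with MACS 1.4 against NIS on joined reads of their repeats. The deposited lists hold positions only. Their chromosome names matched the mm9 (NCBIM37) sequence, and 1 H3K4me1 region ran past a chromosome end. The depth behind a region is not in the lists, so no interval is given.

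Gene bodies were those of the GENCODE annotation of the same build, over all transcripts, and positions are 1-based. Overlap needed 1 bp. Regions were given to the nearest protein-coding transcript start by their midpoint. Counting was checked on simulated intervals, and Python 3.11.15 with numpy 2.4.6 was used. Of 73 genes in the 6 comparison lists, Syk and Spi1 were matched by the older names Sykb and Sfpi1, with RefSeq synonyms. From each of these lists the genes named are the 3 with the most peaks (ties by H3K4me1 cover) and up to 3 empty windows, beside genes tied in peaks and a few named to say what a list holds. Alternatives changed the flank, the overlap, the minimum width, the assignment to genes and the gene model. The members and lists were chosen with earlier results of these data known, and the widths of regions with a peak were compared after their values were seen. A few named items are not reported here.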

Additional observations from a re-analysis of the deposited data

How the results depend on the processing

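The 5 main values were recomputed under 8 alternatives, which gave 38 values. The number of members with an H3K4me1 region was 6 to 9 throughout. With the gene body alone, 3 members had a Runx3 peak, against 33.6% of all genes, with 4 peaks and 20 H3K4me1 regions in all. The median cover was 7.34%, against 5.60% over all genes. Flanks of 5 kb gave 4 members with a peak, against 39.7%, and a median cover of 8.14%, against 7.99%. Flanks of 50 kb gave 6 members with a peak, against 62.6%, 52 H3K4me1 regions and a cover of 5.62%, against 7.48%. Whether the members' median cover lay above or below that of all genes thus depended on the flank. Keeping only regions at least as wide as their list's median left 3 members with a peak (Cd22, Cd79a and Pax5), 17 H3K4me1 regions and a cover of 3.52%. Keeping only regions whose nearest protein-coding start was the member's own left 5 peaks and a cover of 4.27%, and removed Cd79a from the members with a peak. By construction, fewer bases or regions enter with the body alone, with flanks of 5 kb, with the minimum width and with the nearest start, and more with flanks of 50 kb. The midpoint rule, the rule of 50% of the region and the longest transcript left all 8 peaks and 32 regions in place. No paired analysis was possible because each antibody had a single list and no test was run. Leaving out a replicate was likewise not possible. Without scores, a region near the calling threshold cannot be told from a strong one, and an empty window means only that no region was called at this depth.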
